A study of Mus musculus with 8 samples.

Results

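The Fc receptor genes were examined here as 7 mouse genes, Fcgr1, Fcgr2b, Fcgr3, Fcgr4, Fcer1g, Fcgrt and Fcrla, in ATAC-seq data from conventional type 1 dendritic cells (cDC1) of the spleen. ATAC-seq uses a transposase to insert adapters into accessible DNA, so that counts over a genomic region report how open its chromatin is. All regions of the count table that overlapped a gene span or lay within 20 kb of it were taken, which gave 34 of 59906 regions. Fcgr1 had 3 of them, Fcgr2b 5, Fcgr4 3, Fcer1g 6, Fcgrt 7 and Fcrla 10, with no region shared between genes, and Fcgr3 had 0. The 8 libraries were 4 from sorted splenic cDC1 of WT mice and 4 from OPA1-deficient cDC1 of mice carrying CD11c-Cre and an OPA1 flox allele. CD11c-Cre is active in CD11c-expressing cells and not only in cDC1. OPA1 is a GTPase that fuses the inner membrane of mitochondria. The labels give neither the age or sex of the mice, nor the CD11c-Cre line, nor whether the WT mice carried Cre or the flox allele, nor which library came from which animal, so the p-values reflect how far libraries varied, and that variation may be technical. Deletion of Opa1 was not checked here, because the labels do not say which exons the flox allele removes. The comparison addresses whether the accessibility of these genes differed when OPA1 was lost from CD11c-expressing cells.

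Fc receptors bind the constant part of antibodies. Fcgr1 (CD64), Fcgr3 (CD16) and Fcgr4 encode activating receptors for IgG that signal through the common gamma chain, which Fcer1g encodes, whereas Fcgr2b (CD32) encodes the inhibitory receptor with a signalling motif of its own. Fcgrt encodes FcRn, which pairs with beta 2-microglobulin, protects IgG from degradation in endosomes and directs immune complexes in antigen-presenting cells, and Fcrla encodes a related intracellular protein best known from B cells. PU.1, an ETS family transcription factor of myeloid and dendritic cells, binds purine-rich sites with the core GAGGAA and is a known activator of Fc receptor promoters.

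Promoters are shown for the members whose purine-rich sites or region coverage differed, as 300 bases from 250 before to 50 after the transcript start (RefSeq, GRCm38.p6). All 7 genes matched the RefSeq table, and Fcgr3 had a pair of windows 9 bases apart, of which the upstream one is shown. The windows are chr3:96293920-96294219 for Fcgr1, chr1:171059354-171059653 for Fcgr3, chr1:170927534-170927833 for Fcrla and chr1:171234300-171234599 for Fcer1g, all on the minus strand, and chr1:171018676-171018975 for Fcgr4 on the plus strand. Sequences read 5′ to 3′ on the gene's strand, and capitals mark every match to GAGGAA or GGAAGT on either strand, and to the longer words AAAAGAGGAA and GAGGAAGT that contain them. A match on the reverse strand is printed as its reverse complement, so AAAAGAGGAA appears as TTCCTCTTTT.
Fcgr1: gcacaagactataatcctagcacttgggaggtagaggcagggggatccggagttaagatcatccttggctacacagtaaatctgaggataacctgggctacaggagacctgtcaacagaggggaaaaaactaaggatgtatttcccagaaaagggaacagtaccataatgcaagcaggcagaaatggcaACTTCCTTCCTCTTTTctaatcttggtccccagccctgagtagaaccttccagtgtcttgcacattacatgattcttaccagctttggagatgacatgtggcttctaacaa
Fcgr3: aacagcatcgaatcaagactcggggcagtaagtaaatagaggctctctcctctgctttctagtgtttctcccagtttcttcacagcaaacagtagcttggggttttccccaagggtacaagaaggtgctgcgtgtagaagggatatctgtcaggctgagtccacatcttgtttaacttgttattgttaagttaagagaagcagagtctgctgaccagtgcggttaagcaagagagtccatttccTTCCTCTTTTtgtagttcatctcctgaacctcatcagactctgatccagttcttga
Fcrla: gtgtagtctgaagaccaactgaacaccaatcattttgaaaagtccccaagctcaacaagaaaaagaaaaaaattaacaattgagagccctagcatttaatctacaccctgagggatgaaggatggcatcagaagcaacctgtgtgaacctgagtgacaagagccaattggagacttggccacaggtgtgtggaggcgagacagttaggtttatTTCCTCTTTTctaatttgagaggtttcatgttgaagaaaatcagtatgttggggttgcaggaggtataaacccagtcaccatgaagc
Fcgr4: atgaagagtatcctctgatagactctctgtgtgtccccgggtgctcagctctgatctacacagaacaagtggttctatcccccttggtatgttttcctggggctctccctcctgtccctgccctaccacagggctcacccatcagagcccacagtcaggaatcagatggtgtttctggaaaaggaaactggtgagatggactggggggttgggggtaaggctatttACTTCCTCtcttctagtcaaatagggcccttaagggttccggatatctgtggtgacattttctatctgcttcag
Fcer1g: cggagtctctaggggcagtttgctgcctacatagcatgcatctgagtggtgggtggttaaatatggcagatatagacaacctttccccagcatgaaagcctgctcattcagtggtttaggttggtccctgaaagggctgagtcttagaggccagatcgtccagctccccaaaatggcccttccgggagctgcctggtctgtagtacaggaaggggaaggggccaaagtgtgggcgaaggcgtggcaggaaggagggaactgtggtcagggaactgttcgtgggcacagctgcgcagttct

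The decamer AAAAGAGGAA lay at −55 to −46 from the transcript start in Fcgr1, at −6 to 4 in Fcgr3 and at −37 to −28 in Fcrla, each time on the reverse strand, where −1 is the last base before the start and 1 is the first base of the transcript. It was the longest word that 3 or more of the 7 promoters shared on either strand, was chosen after these promoters were read, and occurred in 142 of 32851 promoters in the RefSeq table (0.432%). The longest word that Fcgr1 shared with Fcrla was the 15 bases TTCCTCTTTTCTAAT, and with Fcgr3 the 14 bases TTCCTTCCTCTTTT. The shorter core GAGGAA, also added after reading, was found in Fcgr1, Fcgr3, Fcgr4 and Fcrla and in 28.3% of all promoters. The PU.1 word GAGGAAGT, which contains both GAGGAA and the ETS word GGAAGT, occurred in Fcgr4 at −24 to −17 and in 3.20% of all promoters. GGAAGT itself was in 3 of 7 members, Fcgr1, Fcgr2b and Fcgr4, against 23.8% of all promoters. The interferon-stimulated response element, searched as a pair of GAAA words with any 2 bases between them, was in Fcgr4 and Fcrla (3.44% of all), and the STAT word TTCNNNGAA was in Fcgr1 (8.30% of all), as TTCCCAGAA at −109 to −101. The AP-1 word TGANTCA and the E-box CACGTG were in 0 of 7, and the promoters of Fcer1g and Fcgrt held none of the 8 words. A match describes the letters and does not show that a factor binds there.

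Fc receptor promoters were poor in CpG, with 1 to 7 CpG in 300 bases against a median of 13 over protein-coding genes. Even so, the transcript start lay inside an accessible region for 5 of 7 members, namely Fcgr1, Fcgr2b, Fcgr4, Fcer1g and Fcgrt. Over protein-coding genes 10207 of 21262 starts (48.0%) lay in a region, and among promoters with at most 7 CpG, a limit set by the members themselves, 833 of 8184 did (10.2%). Coverage of the 300 bases ran from 172 in Fcgr4 and 221 in Fcgr2b to 236 in Fcgr1, 264 in Fcgrt and all 300 in Fcer1g. Fcrla was the member whose listed start was uncovered although regions were nearby, the closest lying 1118 bp away. The upstream end of its gene model, at 170932216, did lie inside a region. No word of 50 bases in any member's promoter occurred in another member's promoter or in that of any other gene in the table, on either strand. Related sequence in exons, introns and the rest of the genome was not analysed here.

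Levels are given as CPM, which are counts scaled to a common library total, with TMM factors that correct for composition, and as mean ± SD over 4 libraries per group. For each member, the most accessible region within 1 kb of an end of its gene model served as its representative, chosen by mean CPM. Differences are log2 fold changes, OPA1-deficient minus WT, ± standard error, from edgeR's quasi-likelihood test over 59247 regions with Benjamini-Hochberg adjustment, called at an adjusted p under 0.05. Total counts per library were 4660826 to 7590578, and the member regions held 7 to 760 counts per library, so that most single values carried a large counting error. As a check of the sort, 11 of 12 cDC1 markers had a gene-end region, Itgae being the exception, but so did 5 of 6 markers of cDC2, 12 of 14 of monocytes and macrophages, 5 of 8 of B cells, 3 of 6 of T cells and 1 of 5 of NK cells. So did 2 of 8 markers of neutrophils and mast cells or basophils, and 2 of 4 of plasmacytoid cells. Defining genes of other cells were on both sides: Cd79b, Pax5, Cd3e, Cd3g and Ncr1 had no gene-end region, whereas Cd3d was at 56.8 CPM over the 8 libraries, Cd5 at 32.8 and Cd79a at 21.3. Such a region can lie at either end of a gene, and whether it belonged to a neighbouring gene was not checked here. The highest cDC1 marker, Cadm1, was at 44.2 CPM.

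**Figure D1:**
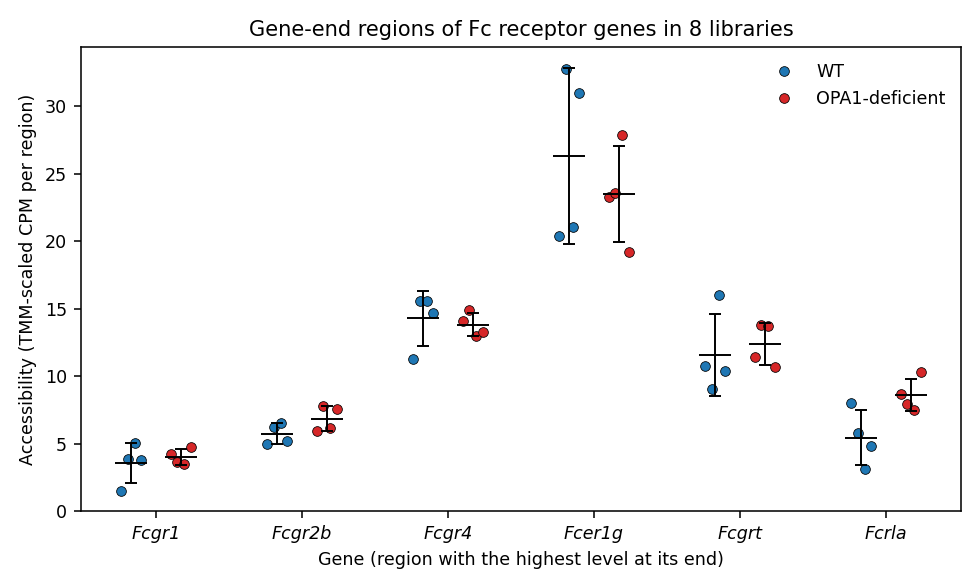
Level of the representative gene-end region of each Fc receptor gene (y axis, TMM-scaled CPM) in 4 WT and 4 OPA1-deficient libraries (points), with the mean and SD per group (bars). Fcer1g is highest with 19.2 to 32.8 CPM, Fcgr1 is lowest with 1.52 to 5.07 CPM, and the groups overlap for every gene. The counts of the Fcer1g region cannot be assigned to Fcer1g alone.

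Among the members, the representative region of Fcer1g had the highest level, although its counts cannot be assigned to Fcer1g alone. Per kb of region, mean levels over all 8 libraries were 36.3 CPM for Fcer1g, 30.6 for Fcgr4, 26.0 for Fcgrt, 23.0 for Fcrla, 20.7 for Fcgr2b and 14.4 for Fcgr1. Each neighbouring pair in this order overlapped in its range over libraries. The genes were measured in the same libraries, and the steps within each library were not compared, so a consistent step can lie under overlapping ranges. The ends of the order did not overlap: Fcer1g ranged from 27.9 to 47.7 CPM per kb, above the highest library of Fcgr2b (25.6) and of Fcgr1 (19.2). Among the representative regions of 12044 protein-coding genes, Fcer1g stood at percentile 33.6 per kb and Fcgr1 at percentile 7.84, and the other 4 measured members lay between them. All 6 were thus below the median of these 12044 genes in accessibility per kb. This ranking covers only genes with a gene-end region, and 9839 of 21883 protein-coding genes (45%) had none.

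None of the 34 regions was called as different between OPA1-deficient and WT cDC1 (0 of 34 by edgeR, by DESeq2 and by limma-voom), where 12 of 59247 regions were called over the table (0.0203%; 0.00506% higher and 0.0152% lower). At an unadjusted p under 0.05 there were 3 of 34 with each of these tools (8.82%), 2 higher and 1 lower, against 6.38% over the table by edgeR (2.92% higher and 3.46% lower). By edgeR these were the region inside Fcgrt, the one in Rcn3 next to it and the gene end of Fcrla. Without WT replicate 2 the count was 5 of 34, but the count over the table rose as well. It was 5084 of 59409 regions, against 3782 of 59247 with all libraries. In 3 of 34 regions the WT and OPA1-deficient values were fully apart, 2 higher and 1 lower, against 3.95% over the table (1.84% higher and 2.11% lower). Log2 fold changes ran from −0.74 to 0.69 with a median of 0.09, and 21 of 34 were above 0 (61.8%, against 49.3% of all regions). Adjusted p-values lay between 0.623 and 0.995. Because each library pools many cells, fewer open cells and less opening per cell cannot be told apart.

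**Figure D2:**
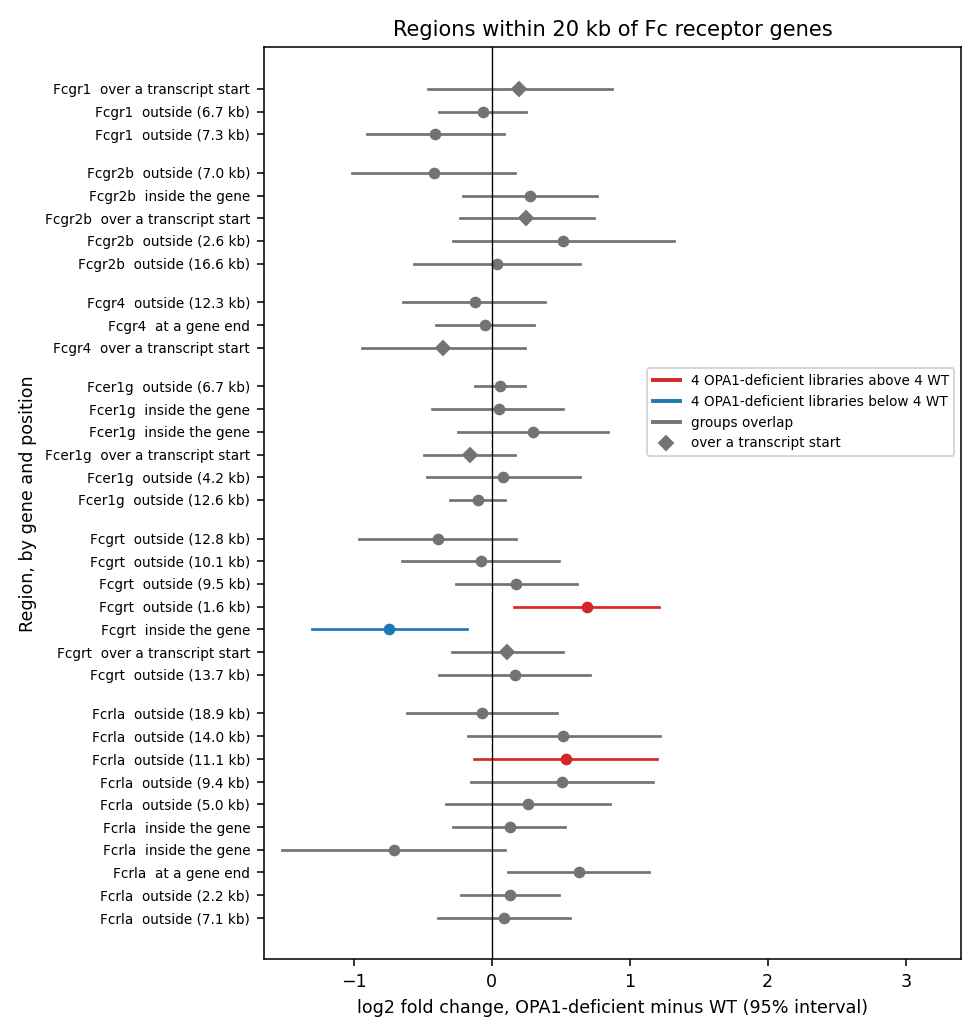
Log2 fold change, OPA1-deficient minus WT, with its 95% interval (x axis) for the 34 regions within 20 kb of 6 Fc receptor genes (rows, by gene and position, with the distance from the gene for outside regions); diamonds lie over a transcript start, and colour shows whether the libraries of the groups overlap. Values run from −0.74 to 0.69, and the groups do not overlap in 3 regions.

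The activating receptor Fcgr1 had the lowest mean level per kb over its start. The region over its start (chromosome 3, 96293891 to 96294155) was at 1.52, 3.90, 5.07 and 3.77 CPM in WT replicates 1 to 4 and at 4.27, 3.63, 3.49 and 4.76 CPM in OPA1-deficient replicates 1 to 4. WT replicate 1 was the lowest of the 8, with 10 counts, and the other 7 lay between 3.49 and 5.07, with a log2 fold change of 0.20 ± 0.33 (edgeR adjusted p = 0.954) that was −0.06 without that library. The strongest signal near Fcgr1 was 6713 bp upstream, at 96300682 to 96301126, with 20 ± 3.01 CPM in the WT libraries against 19.2 ± 1.21 CPM in OPA1-deficient cells. Per kb this upstream region was at 44.1 CPM against 14.4 CPM over the start. Its neighbour at 96301268 to 96301616 had the smallest p near Fcgr1, with 7.40 ± 1.71 against 5.56 ± 1.08 CPM (−0.41 ± 0.24, edgeR adjusted p = 0.828).

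Fcgr4, the activating receptor for IgG2 subclasses, was open on the upstream side of its start. The region at 171017672 to 171018132 on chromosome 1, 794 bp upstream, was at 11.3, 15.6, 15.6 and 14.7 CPM in the WT libraries against 14.1, 14.9, 13.0 and 13.3 CPM in OPA1-deficient libraries. The OPA1-deficient values fell within the WT range (−0.05 ± 0.18, edgeR adjusted p = 0.986), and the difference was 0.00 or 0.01 when WT replicate 2 or 3 was left out. The region over the start itself, at 171018804 to 171018990, which holds the GAGGAAGT match shown above, was at 4.41, 5.61, 3.80 and 3.95 CPM in the WT libraries against 3.56, 2.72, 3.89 and 3.77 CPM in OPA1-deficient libraries. The groups overlapped, and the difference was −0.35 ± 0.29 (edgeR adjusted p = 0.892). All 3 regions near Fcgr4 had values under 0, from −0.35 to −0.05.

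Fcgr3, the activating receptor CD16, could not be compared, because the table as analysed here held no region within 20 kb of its span (chromosome 1, 171051169 to 171065915). Its span lay in a stretch of 94.8 kb without regions, from 171018990 to 171113792, which began at the last Fcgr4 region. The nearest regions were 32.2 kb from one end of the gene and 47.9 kb from the other. Of the 59872 gaps between neighbouring regions 6.88% were as long, with a median of 10.1 kb, and 5177 of 21883 protein-coding genes (23.7%) had no region within 20 kb. The same stretch held 25 annotated tRNA genes, 3 of them inside the Fcgr3 span. Elsewhere 169 of 383 tRNA genes had a region within 1 kb (44.1%); those in the stretch had none because it was defined by the absence of regions. By their annotated names, tRNA genes for Glu, Gly, Asp, Leu and Gly recur in that order along the stretch. Reads from repeated copies can be lost when a unique position is required; whether that was done was not given in the sources used here, and its part in this gap was not tested.

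**Figure D3:**
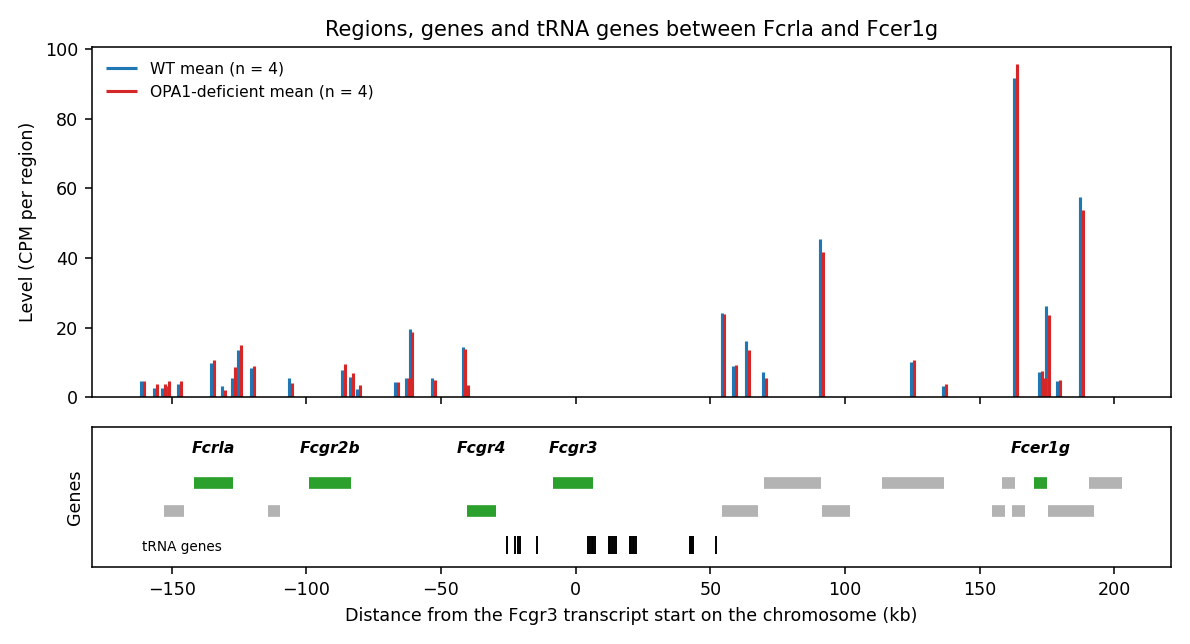
Mean level of each region (y axis, CPM, WT and OPA1-deficient side by side) from 20 kb outside Fcrla to 20 kb outside Fcer1g, plotted by distance from the Fcgr3 transcript start (x axis, kb), above protein-coding gene spans (green for Fc receptor genes, grey for others) and tRNA genes (ticks). The 94.8 kb around Fcgr3 hold 25 tRNA genes and no region, and the tallest bars, at 91.7 and 95.7 CPM, lie over Tomm40l and Apoa2.

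The inhibitory receptor Fcgr2b had values above 0 in 4 of its 5 regions, and none was called. Over its start (170975937 to 170976242) the level was 5.02, 6.24, 6.55 and 5.20 CPM in the WT libraries against 5.98, 7.80, 6.17 and 7.55 CPM in OPA1-deficient libraries. The highest levels were in OPA1-deficient replicates 2 and 4, and the other 2 OPA1-deficient libraries fell within the WT range (0.25 ± 0.24, edgeR adjusted p = 0.909). A region inside the gene, 2714 bp downstream of the start, was at 7.90 ± 3.05 CPM in the WT libraries against 9.62 ± 1.56 CPM in OPA1-deficient cells (0.28 ± 0.24, edgeR adjusted p = 0.899). It was somewhat more open per kb than the region over the start, with 25.4 against 20.7 CPM. The smallest p near Fcgr2b belonged to a region 6975 bp past the other end of the gene, at 170953248 to 170953583, with 5.53 ± 1.67 and 4.14 ± 1.26 CPM (−0.42 ± 0.29, edgeR adjusted p = 0.864).

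Fcer1g, the signalling chain that the activating receptors share, had a region of 687 bp over its start (171234171 to 171234858). Its counts cannot be assigned to 1 gene with certainty. Levels were 20.4, 32.8, 21.1 and 31.0 CPM in the WT libraries against 23.3, 23.6, 27.9 and 19.2 CPM in OPA1-deficient libraries. WT replicates 2 and 4 were high and WT replicates 1 and 3 low, and 3 of 4 OPA1-deficient libraries lay between them, with replicate 4 at the bottom (−0.16 ± 0.16, edgeR adjusted p = 0.918). Inside the gene, the regions at 171231906 and 171233010 were at 7.29 ± 1.35 and 4.34 ± 0.975 CPM in the WT libraries against 7.47 ± 1.69 and 5.39 ± 0.424 CPM in OPA1-deficient cells. The second of them had the smallest p near Fcer1g (0.30 ± 0.27, edgeR adjusted p = 0.903). The strongest region within 20 kb lay over the neighbours Tomm40l, a mitochondrial import channel gene, and Apoa2, with 91.7 ± 8.76 and 95.7 ± 5.46 CPM (0.06 ± 0.09, edgeR adjusted p = 0.948).

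By a rule on likeness, the gene ends whose log2(CPM + 0.5) followed Fcer1g most closely over the 8 libraries were those of Adgre5 (Pearson r = 0.991), Abhd17a (0.987) and Ddb2 (0.985). Among 10529 gene-end regions compared, 288 gene ends had r above 0.9. This is a description of 8 libraries that share depth and composition effects.

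The window of Fcgrt, which encodes FcRn, held the largest differences in either direction, in a pair of neighbouring regions, neither of them called. The negative difference lay inside Fcgrt, and the positive one lay past its end, in Rcn3. Over the Fcgrt start (chromosome 7, 45103575 to 45104036) the level was 10.8, 9.05, 16 and 10.4 CPM in the WT libraries against 11.4, 13.8, 13.7 and 10.7 CPM in OPA1-deficient libraries, with overlapping groups (0.11 ± 0.20, edgeR adjusted p = 0.961). Inside the gene, 8081 bp downstream of the start, the region at 45095334 to 45095741 was at 6.39, 5.15, 5.70 and 7.0 CPM in the WT libraries against 4.56, 3.99, 2.42 and 3.61 CPM in OPA1-deficient libraries. All 4 OPA1-deficient libraries lay below all 4 WT libraries. The difference was −0.74 ± 0.27 with a 95% interval of −1.30 to −0.18, and it did not pass the test over all regions (edgeR adjusted p = 0.623).

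The next region, at 45091119 to 45091436, lay 1557 bp past the end of Fcgrt on the side away from its start, and overlapped the Rcn3 model, which encodes a calcium-binding protein of the endoplasmic reticulum. It was at 5.02, 4.52, 2.96 and 3.95 CPM in the WT libraries against 6.26, 6.89, 8.18 and 5.42 CPM in OPA1-deficient libraries. Here all 4 OPA1-deficient libraries lay above all 4 WT libraries, and OPA1-deficient replicate 3, the highest here, was the lowest in the region inside Fcgrt. The difference was 0.69 ± 0.26 (95% interval 0.16 to 1.21), and it did not pass either (edgeR adjusted p = 0.631). Both regions were low, with 18 to 42 counts per library inside Fcgrt and 14 to 61 in Rcn3. The other 4 regions near Fcgrt were between −0.39 and 0.18.

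**Figure D4:**
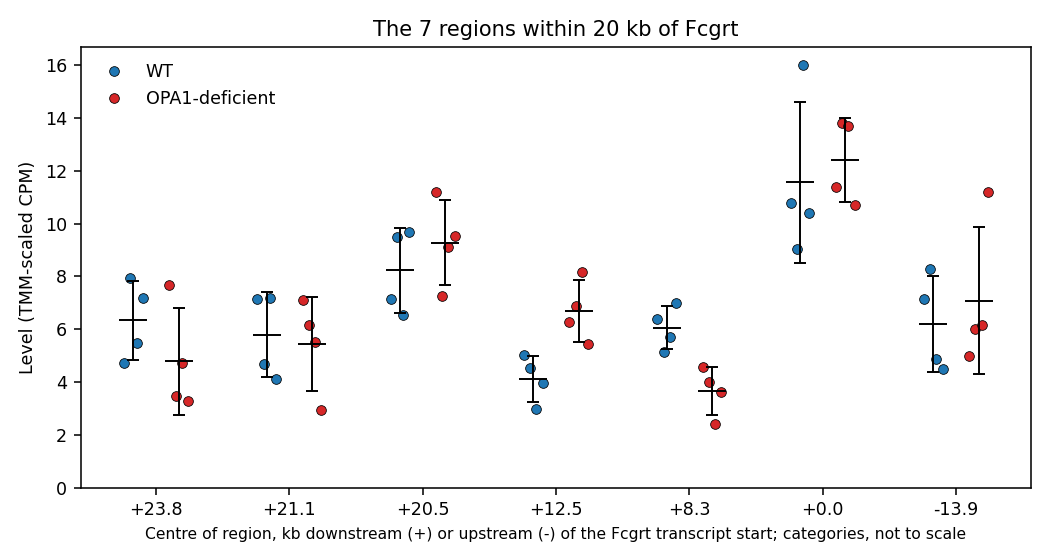
Level (y axis, TMM-scaled CPM) of the 7 regions within 20 kb of Fcgrt, ordered along the chromosome and labelled by the distance of their centre from the transcript start in kb (x axis), in 4 WT and 4 OPA1-deficient libraries (points) with mean and SD (bars). The groups are apart in 2 regions, higher in OPA1-deficient libraries at 12.5 kb and lower at 8.3 kb downstream, and overlap over the start and in the other 4.

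Fcrla, best known from B cells, had the most regions in its window. Values were above 0 in 8 of the 10, with a median log2 fold change of 0.20 against −0.004 over all tested regions, but 5 of the 10 lay nearest to the homologue Fcrlb and 1 to Gm39701. The 4 regions nearest to Fcrla itself were at 0.13, −0.71, 0.63 and 0.13. The largest of these in size lay inside the gene, at 170928701 to 170928838, with 4.26, 2.96, 3.80 and 1.79 CPM in the WT libraries against 1.85, 3.08, 1.21 and 1.81 CPM in OPA1-deficient libraries. The groups overlapped at 9 to 28 counts per library, and the difference was not called (−0.71 ± 0.40, edgeR adjusted p = 0.824). Its representative region, at the upstream end of the gene model (chromosome 1, 170932166 to 170932472), was at 8.06, 5.77, 3.17 and 4.85 CPM in the WT libraries against 8.68, 7.98, 7.51 and 10.3 CPM in OPA1-deficient libraries. WT replicate 1 overlapped the OPA1-deficient range, and the other 3 WT libraries lay below it. The difference was 0.63 ± 0.25 with a 95% interval of 0.12 to 1.14, and it was not called (edgeR adjusted p = 0.669). The most open region per kb near Fcrla was 2189 bp further upstream, at 13.7 ± 1.44 and 14.9 ± 1.66 CPM (0.13 ± 0.17, edgeR adjusted p = 0.940). Next to Fcrlb, the region at 170906258 to 170906458 was higher in all 4 OPA1-deficient libraries (3.99, 4.35, 3.62 and 3.45 CPM) than in any WT library (2.59, 1.87, 3.38 and 2.87 CPM). It held 12 to 28 counts per library and was not called (0.54 ± 0.32, edgeR adjusted p = 0.834).

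Summing counts gave 1 value per gene. For Fcgr1 only the region over its start entered the sum, so that value is not a further result. Over regions at the gene or within 1 kb of it, 0 of 6 members were called by edgeR, DESeq2 or limma-voom, and by edgeR 0 of 6 had an unadjusted p under 0.05, where edgeR called 4 of 14428 genes (0.0277%) and 5.45% had such a p. The groups overlapped for all 6, where they were apart for 3.26% of genes. Fcgr2b was at 13.6 ± 3.50 CPM in the WT libraries against 16.5 ± 2.19 CPM in OPA1-deficient cells (0.27 ± 0.18, 95% interval −0.10 to 0.63) and Fcrla at 18.5 ± 1.39 and 21.3 ± 2.41 CPM (0.20 ± 0.13, −0.08 to 0.48). Fcgr1 was at 0.21 ± 0.33 (−0.47 to 0.89) in this fit, Fcer1g at −0.06 ± 0.14 (−0.34 to 0.22), Fcgr4 at −0.11 ± 0.14 (−0.40 to 0.17) and Fcgrt at −0.13 ± 0.15 (−0.45 to 0.19). Adjusted p-values of the 6 sums by edgeR were 0.957 to 0.992. The Fcer1g sum was above 0 without WT replicate 2 (0.05), WT replicate 4 (0.01) or OPA1-deficient replicate 4 (0.02). It includes the region over the Fcer1g start, whose counts cannot be assigned to Fcer1g alone, which also limits its interval. For Fcer1g, Fcgr4 and Fcgrt a rise above 1.17-fold lay outside the 95% intervals, whereas for Fcgr1 a 1.85-fold rise lay at the limit. For Fcer1g, Fcgr4 and Fcgrt falls were less tightly bounded than rises, with lower limits of 0.788-fold, 0.757-fold and 0.734-fold. For the other measured members rises were less tightly bounded than falls. Their limits were 0.721- and 1.85-fold for Fcgr1, 0.934- and 1.55-fold for Fcgr2b, and 0.945- and 1.39-fold for Fcrla. Over the whole 20 kb windows, the Fcrla sum was 57.8, 54.0, 59.3 and 59.8 CPM in the WT libraries against 63.1, 67.3, 64.8 and 71.2 CPM in OPA1-deficient libraries, without overlap. That sum differed by 0.21 ± 0.08 and did not pass the test over 16675 genes (edgeR adjusted p = 0.890), of which 0.024% were called and 5.19% had an unadjusted p under 0.05. The 20 kb sums of the other measured members overlapped between groups. The share of all genes without overlap was not counted for this window, so the separation of the Fcrla sum cannot be set against it. Regions nearest to Fcrlb and Gm39701 entered the Fcrla sum.

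Genes that act with Fc receptors were compared through the same fit, with 1 gene-end region per gene. Over all 10563 gene-end regions 0 were called, 428 had an unadjusted p under 0.05 (4.05%), 61.8% were below 0 and the median log2 fold change was −0.03. Of 25 genes of Fc receptor signalling, which includes the kinases, adaptors and phosphatases downstream of the receptors, 23 had a tested region. By edgeR 0 of 23 were called and 1 had an unadjusted p under 0.05, 14 were below 0, and the median was −0.05. The smallest p belonged to Cblb, a ubiquitin ligase that restrains receptor signalling, at 94.6 ± 7.89 CPM in the WT libraries against 82.8 ± 5.24 CPM in OPA1-deficient cells (−0.19 ± 0.09, edgeR adjusted p = 0.760). Ptpn6, the phosphatase SHP-1 that inhibitory receptors recruit, was at 0.28 ± 0.16 (edgeR adjusted p = 0.825). Btk, a kinase downstream of Syk, was at −0.31 ± 0.19 (edgeR adjusted p = 0.834), with its 4 OPA1-deficient libraries below the 4 WT libraries. Over all tested regions the groups were apart in 3.95%, and in 2.11% the OPA1-deficient libraries were the lower ones.

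Of 12 other immunoglobulin receptors and homologues, 7 had a tested gene-end region, and 0 were called or had an unadjusted p under 0.05 by edgeR. Fcmr, Fcamr, Pigr, Fcer1a and Ms4a2 had none. The median was 0.12 with 3 below 0, led by Fcrlb as given above, Trim21, the cytosolic antibody receptor (−0.16 ± 0.12, edgeR adjusted p = 0.877), and Fcrl6 (0.36 ± 0.31, edgeR adjusted p = 0.897). Of 10 receptors and adaptors that work with or like the gamma chain, with the FcRn partner B2m among them, 6 had a tested region and 0 were called or had an unadjusted p under 0.05 (median 0.01, 2 below 0). B2m was at 81.7 ± 8.65 CPM in the WT libraries against 75.7 ± 2.64 CPM in OPA1-deficient cells (−0.11 ± 0.09, edgeR adjusted p = 0.895). The C-type lectin gene Clec4e, whose receptor Mincle signals through the gamma chain, was at 0.11 ± 0.15 and the adaptor gene Tyrobp at 0.09 ± 0.13 (edgeR adjusted p = 0.942 and 0.948).

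Macrophages, which express Fcgr1 and Fcgr4, can accompany dendritic cells in a sort. Of 14 monocyte and macrophage markers, 12 had a tested gene-end region, 9 of 12 were below 0 (median −0.29), 0 were called and 4 had an unadjusted p under 0.05 by edgeR, where 61.8% of all gene-end regions were below 0 and 4.05% had such a p. Their summed level was 107 to 133 CPM in the WT libraries against 101 to 107 CPM in OPA1-deficient libraries, and none of the 12 was at 0, while Cd163 and Ccr2 had no gene-end region. For B cells, which express Fcgr2b and Fcrla, 5 of 8 markers had such a region, all 5 were below 0 (median −0.05), 0 had an unadjusted p under 0.05, and the sum was 48.1 to 59.8 CPM in the WT libraries against 44.6 to 53.3 CPM in OPA1-deficient libraries. Marker regions can lie at either end of a gene and may belong to a neighbour, which limits these sums. The part of either cell type in the Fc receptor values was not tested.

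The 20 kb limit left out regions close by. Just inside it, the regions 16.6 kb from Fcgr2b and 18.9 kb from Fcrla had mean levels of 4.50 and 4.81 CPM in WT. Just outside it, the region at 170997817 to 170998692, 21.7 kb from Fcgr2b and 20.2 kb from Fcgr4, was at 19.6 ± 4.01 CPM in the WT libraries against 18.8 ± 2.76 CPM in OPA1-deficient cells.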

How the data were processed

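The authors deposited a table of raw counts per region over a region set shared by 8 libraries. The submitters' processing notes name MACS2 2.1.0.20150603, bedtools, SAMtools, Picard 1.65 and cutadapt 1.9, and the builds mm10 and GRCm38. What each did, any read filters and how regions were chosen are not given in the sources used here. Coordinates are printed as in the table, whose first base may count from 0 or 1. Genes came from RefSeq models on GRCm38.p6, and sequence was used only at RefSeq promoters. Regions were filtered with filterByExpr and scaled with TMM factors (0.947 to 1.03), then tested with edgeR 4.0.16 in R 4.3.3 (robust quasi-likelihood fit, no covariates, p-values adjusted over all 59247 regions or, for gene sums, over all genes). Standard errors and 95% intervals came from that fit. On simulated counts its calls, signs and fold changes were checked, but its standard errors and intervals were not. Alternatives were DESeq2 1.42.0, limma-voom (limma 3.58.1), other scalings, filters and windows, a replicate block and leaving out each library. The members and lists were chosen with earlier results of these data known. Named were, per gene, the representative region, the region with the smallest p, and called regions, and per list the 3 genes with the smallest p; the regions in Rcn3 and at Fcrlb and other regions per gene were named after their values were seen. Some neighbouring and marker genes are not reported here.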

Additional observations from a re-analysis of the deposited data

Results flagged for a closer look

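Of 80 sets of 4 values (34 regions and 6 gene sums, each in both groups), 3 had 1 library far from the other 3, where chance alone gives about 1 in 20. In the region 2645 bp upstream of Fcgr2b, OPA1-deficient replicate 3 was at 1.34 CPM, and the other 3 OPA1-deficient libraries were at 3.99 to 4.43 CPM. In the region 12253 bp from Fcgr4, WT replicate 4 was at 6.10 CPM against 5.17 to 5.30 CPM. In the region inside Fcer1g at 171233010, OPA1-deficient replicate 4 was at 4.76 CPM against 5.55 to 5.64 CPM.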

How the results depend on the processing

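The number of called members stayed at 0 for regions, gene sums and all 3 lists under every alternative run. With the replicate number as a block, the count of called regions was 0 and 3 of 34 had an unadjusted p under 0.05; same-numbered libraries did not deviate together (r = −0.132 to −0.011), so the numbers were not used as pairs. Over all regions 12 were called by edgeR, 42 by DESeq2, 4 by limma-voom, 1 with the block, 7 with the stricter filter, 68 when WT replicate 2 was left out, 22 without OPA1-deficient replicate 4 and 1 to 8 without any other library; over gene sums the 4 calls became 12 by DESeq2, 1 with the block, 39 without WT replicate 2 and 1 to 4 without any other library. The 3 member regions with an unadjusted p under 0.05 became 5 without WT replicate 2, 4 without WT replicate 4 or OPA1-deficient replicate 1 or 2, and 2 without WT replicate 3 or OPA1-deficient replicate 3 or 4. The count over the whole table moved too, from 3782 of 59247 regions to 5084 of 59409 without WT replicate 2. It was 4179 of 59466 without OPA1-deficient replicate 4, 3204 to 3910 without any other library, and 3033 with the block. The number of regions above 0 was 21 of 34, 13 of 21 with the stricter filter (5 CPM in 4 libraries), 8 of 13 within 1 kb, 34 of 55 within 50 kb and 11 of 19 where a member was the nearest gene. Small values changed sign: the region over the Fcgr1 start and the Fcgr1 sum (−0.06 for both without WT replicate 1, range to 0.42), the Fcgr4 region at 171017672 (0.00 and 0.01 without WT replicate 2 or 3, range from −0.14) and the Fcer1g sum (0.05, 0.01 and 0.02 without WT replicate 2, WT replicate 4 or OPA1-deficient replicate 4, range from −0.16). Over 20 kb the Fcgr1 sum was −0.11 and the Fcgrt sum 0.03. None of these was called, and the cause was not tested. Leaving out 1 library, the region inside Fcgrt ranged from −0.87 to −0.57 and the Fcrla gene-end region from 0.47 to 0.89. Low counts limit the precision at single regions.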
